A study of Homo sapiens with 48 samples.

Results

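Cyclins A and B and their CDK inhibitors were followed, with the D-type and E-type cyclins and cyclin I, through knockdown of eIF2Bα or eIF2Bδ in SW480 cells, a human APC-mutant colorectal adenocarcinoma line. The 10 genes CCND1, CCND3, CCNE1, CCNE2, CCNA2, CCNB1, CCNB2, CCNI, CDKN1A and CDKN1B were taken by their listed symbol, and all 10 were present in both the table of 11145 genes with ribosome-protected fragments (RPFs) and the table of 11947 genes with total cytoplasmic RNA. Cells carried a doxycycline (DOX)-inducible shRNA, either non-targeting (shCTRL), against EIF2B1 (shEIF2B1, eIF2Bα) or against EIF2B4 (shEIF2B4, eIF2Bδ), and were kept for 5 days with DMSO (-DOX) or 1 µg/ml DOX (+DOX). Each line is a selected pool of transduced cells, not a clone, and all 3 lines received the same DOX treatment. The experiment was run in 4 separate weeks, giving 24 lysates and 48 libraries, so each of the 6 groups holds 4 RPF and 4 total RNA libraries.

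Cyclins are the regulatory partners of cyclin-dependent kinases (CDKs). D-type cyclins pair with CDK4 and CDK6 early in the cycle, E-type cyclins with CDK2 at the start of DNA replication, cyclin A with CDK2 and CDK1 through replication and into mitosis, and B-type cyclins with CDK1 at mitotic entry. CDKN1A (p21) and CDKN1B (p27) bind and restrain cyclin-CDK complexes, and their abundance is set at the levels of transcription, translation and protein destruction. eIF2B recycles eIF2, the factor that brings the initiator tRNA to the start codon, and upstream AUG codons in a leader can change how a coding sequence responds when eIF2B activity is low.

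The start codons where eIF2 acts on these mRNAs are shown first, with the ATG in capitals and 12 bases on each side, on the strand of the mRNA. Sequences are from the GENCODE v29 transcripts with the identifiers in the tables, on GRCh38, and CCNE2 is named only.
CCND1 (chr11:69641314-69641316, + strand): agagccccagccATGgaacaccagctc
CCND3 (chr6:41941647-41941649, - strand): cgctgcccgagtATGgagctgctgtgt
CCNE1 (chr19:29812711-29812713, + strand): gagcgggacaccATGaaggaggacggc
CCNA2 (chr4:121823626-121823628, - strand): ccgggagcagtgATGttgggcaactct
CCNB1 (chr5:69167263-69167265, + strand): gaagaggaagccATGgcgctccgagtc
CCNB2 (chr15:59105269-59105271, + strand): tccccgtccctcATGgcgctgctccga
CCNI (chr4:77066360-77066362, - strand): ccaaaggatatcATGaagtttccaggg
CDKN1A (chr6:36684102-36684104, + strand): agaggaggcgccATGtcagaaccggct
CDKN1B (chr12:12717840-12717842, + strand): cccgggagaaagATGtcaaacgtgcga
A purine 3 bases before the ATG was present in 9 of the 10 genes, CCNB2 being the exception, and in 84.7% of 10478 genes with a reference transcript. CCNI had the most upstream ATGs of the 10, with 5 in a leader of 577 nt, at or above 95.4% of genes. CDKN1B had the longest leader, 716 nt, with 1 upstream ATG. CCNE1, CCNB1 and CCNB2 also had 1 each, the other 5 genes had none, and 47.7% of all genes had at least 1. The coding sequences of the B-type and A-type cyclins were poor in GC, at 46.0% in CCNA2, 44.5% in CCNB1 and 43.6% in CCNB2, against a median of 52.2%. CCNE2 (38.9%), CCNI (44.8%) and CCNE1 (47.6%) lay below that median too. CDKN1A reached 63.6% and CDKN1B 58.5%, and the D-type cyclins CCND1 (61.1%) and CCND3 (63.0%) were as rich. These leaders belong to an older annotation release than the GENCODE v38 used by the authors.

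Since CCNA2, CCNB1 and CCNB2 all fell in the RPFs after shEIF2B1, their promoters were also read. Promoter sequences around the starts, from RefSeq on GRCh38.p14, were matched for 8 of the 10 genes; CCND1 and CCNE2 were not matched. The letters CCAAT were searched on both strands. The copy nearest before the RefSeq start lay 56, 55 and 54 bases before it in CCNA2, CCNB1 and CCNB2, and only this copy is shown. The GENCODE v29 transcripts used for the leaders begin further upstream for CCNB1 (chr5:69167010) and CCNB2 (chr15:59105078), so that by that annotation the letters lie within the leaders of these 2 genes, and only those of CCNA2 lie before its start. They are in capitals below, on the strand of the gene, and read ATTGG in CCNA2, where the match is on the opposite strand.
CCNA2 (chr4:121823923-121823951, - strand): gcgagcgctttcATTGGtccatttcaata
CCNB1 (chr5:69167083-69167111, + strand): gccacgaacaggCCAATaaggagggagca
CCNB2 (chr15:59105080-59105108, + strand): gcgcagggccgcCCAATggggcgcaagcg
CCAAT occurred once in the CCNA2 window, at 2 places for CCNB1 and at 4 for CCNB2, and in 34.6% of 35116 promoters. Promoters of CDKN1B and CCND3 held it too, and those of CDKN1A, CCNE1 and CCNI did not. The letters TTTGAA, on either strand, were found for CCNB2 29 bases before the RefSeq start and for CCNI 12 bases after one of its 2 annotated starts, and in 15.2% of all promoters. These matches describe the letters only, and binding at them was not measured.

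The authors deposited regularized log2 values (rlog), made for each table separately by DESeq2, with no read counts, so the depth behind each value is unknown. Library means lay between 6.99 and 7.18 in RPFs, where the shEIF2B4 libraries were lowest (6.99 to 7.02), and between 7.76 and 7.82 in total RNA. The epithelial markers EPCAM, KRT8, KRT18, KRT19, CDX2 and CDH1 were listed, CDH1 at a low level, and KRT20, VIL1, PTPRC, PECAM1, COL1A1 and COL1A2 gave no value here. VIM, a mesenchymal marker that SW480 cells also express, was high. EIF2B1 total RNA was 8.19, 8.21, 8.25 and 8.38 in the -DOX and 7.68, 7.49, 7.10 and 7.24 in the +DOX libraries of shEIF2B1 (weeks 1 to 4). EIF2B4 total RNA was 6.88, 7.20, 7.42 and 7.24 in the -DOX and 6.64, 6.68, 6.47 and 6.66 in the +DOX libraries of shEIF2B4. A response is the change from -DOX to +DOX in a line minus the change in shCTRL, fitted by limma across all genes with the week as a block. Adjustment was by Benjamini and Hochberg over the whole table, and a gene with an adjusted p under 0.1 was called. The response of EIF2B1 to its shRNA was -0.67 ± 0.15 (SE, adjusted p = 0.0263, limma) and that of EIF2B4 was -0.49 ± 0.14 (adjusted p = 0.0634) in total RNA, while the RPF response of EIF2B4 to its own shRNA, -0.48 ± 0.19, was not called (adjusted p = 0.236).

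Per kilobase of coding sequence, the RPF level in the uninduced shCTRL line was highest for CCND1, at 11.91 ± 0.25 log2 units (SD, n = 4). CCNB1 (10.59 ± 0.41), CDKN1A (10.37 ± 0.32) and CCND3 (10.19 ± 0.23) followed, and these neighbours lay within their SDs of each other. CCNA2 (9.29 ± 0.26), CDKN1B (9.26 ± 0.35) and CCNB2 (9.22 ± 0.32) were also alike within their SDs. CCNI (8.24 ± 0.15) lay below them, and the E-type cyclins CCNE2 (5.30 ± 0.19) and CCNE1 (3.92 ± 0.29) were far below. The order differed in total RNA per kilobase of transcript. There CCNI was highest (10.59 ± 0.08), above CCND1 (10.11 ± 0.04), CCNB1 (9.67 ± 0.18), CCNA2 (9.51 ± 0.11) and CCNB2 (9.48 ± 0.09). The 2 inhibitors were low (CDKN1A 7.57 ± 0.13, CDKN1B 7.06 ± 0.05), and CCND3 (7.57 ± 0.10) and CCNE2 (7.09 ± 0.19) were as low. CCNE1 was again lowest, at 4.49 ± 0.11. The scales of the 2 tables were set separately, so only the order within each table is comparable.

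RPFs on the A-type and B-type cyclins fell after shEIF2B1. CCNA2, the partner of CDK2 and CDK1, had RPF values of 9.78, 10.14, 9.82 and 10.15 in the -DOX libraries of shEIF2B1 (weeks 1 to 4) and 8.85, 8.98, 8.72 and 9.20 in the +DOX libraries. All 4 induced libraries lay below all 4 uninduced ones. In shCTRL the same weeks gave 9.30, 9.82, 9.64 and 9.88 without and 9.42, 9.39, 9.48 and 9.86 with DOX, and these ranges overlapped. The response was -0.91 ± 0.13 (SE), a fold of 0.533, with an adjusted p of 0.000212 (limma), and it was negative in 4 of 4 weeks. Only 0.8% of genes in the table had a response as low or lower. In these bulk lysates, fewer cells at a stage of the cycle and less RNA or fewer ribosomes per cell cannot be told apart.

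CCNB1, the main mitotic partner of CDK1, went from 10.91, 11.62, 11.12 and 11.45 to 10.04, 10.31, 9.88 and 10.44 in shEIF2B1. The induced and uninduced libraries again did not overlap, with every induced library lower. The shCTRL line gave 10.44, 11.09, 10.94 and 11.43 without and 10.82, 10.30, 10.49 and 11.24 with DOX, a fall in 3 of 4 weeks, so the corrected response of -0.84 ± 0.21 (adjusted p = 0.0097, limma) was smaller than the uncorrected fall. CCNB2, the second B-type cyclin, went from 9.62, 10.28, 9.72 and 10.11 to 8.85, 9.46, 8.98 and 9.61. Its ranges did not overlap either, although the highest induced library (9.61) lay next to the lowest uninduced one (9.62). The shCTRL libraries read 9.11, 9.82, 9.33 and 9.68 without and 9.45, 9.61, 9.41 and 9.88 with DOX. The CCNB2 response was -0.81 ± 0.13 (adjusted p = 0.000592, limma), negative in 4 of 4 weeks.

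The CDK inhibitors moved the opposite way in the same libraries. CDKN1A RPFs went from 9.36, 8.60, 9.10 and 8.52 in the -DOX libraries of shEIF2B1 to 9.71, 9.22, 9.48 and 9.07 in the +DOX libraries. The ranges overlapped because the weeks differed, but each week rose. In shCTRL they were 9.74, 9.24, 9.47 and 8.97 without and 9.55, 9.24, 9.38 and 8.98 with DOX. The response was 0.54 ± 0.12 (adjusted p = 0.00491, limma), with 0.54, 0.62, 0.46 and 0.54 in weeks 1 to 4. CDKN1B RPFs went from 8.47, 8.04, 8.19 and 8.10 to 8.78, 8.27, 8.78 and 8.43 in shEIF2B1. The shCTRL libraries were 8.65, 8.21, 8.95 and 8.26 without and 8.63, 8.21, 8.48 and 8.39 with DOX. The CDKN1B response of 0.46 ± 0.14 (adjusted p = 0.0283, limma) rested on week 3, whose response was 1.06 against 0.34, 0.23 and 0.20 in the other weeks. Without week 3 it was 0.26 with an adjusted p of 0.213.

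In RPFs 5 of the 10 genes were therefore called after shEIF2B1, 3 lower where 15.3% of all genes were called lower, and 2 higher where 12% were called higher. The median response of the 10 genes was -0.24, against -0.01 over all genes. The calls depended on the block: in the fit without the replicate block the same changes had adjusted p-values between 0.145 (CCNA2) and 0.621 and none of the 10 genes was called, with 3 of them at an unadjusted p under 0.05, where 7.78% of all genes were, and 50 genes called of all those tested.

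**Figure D1:**
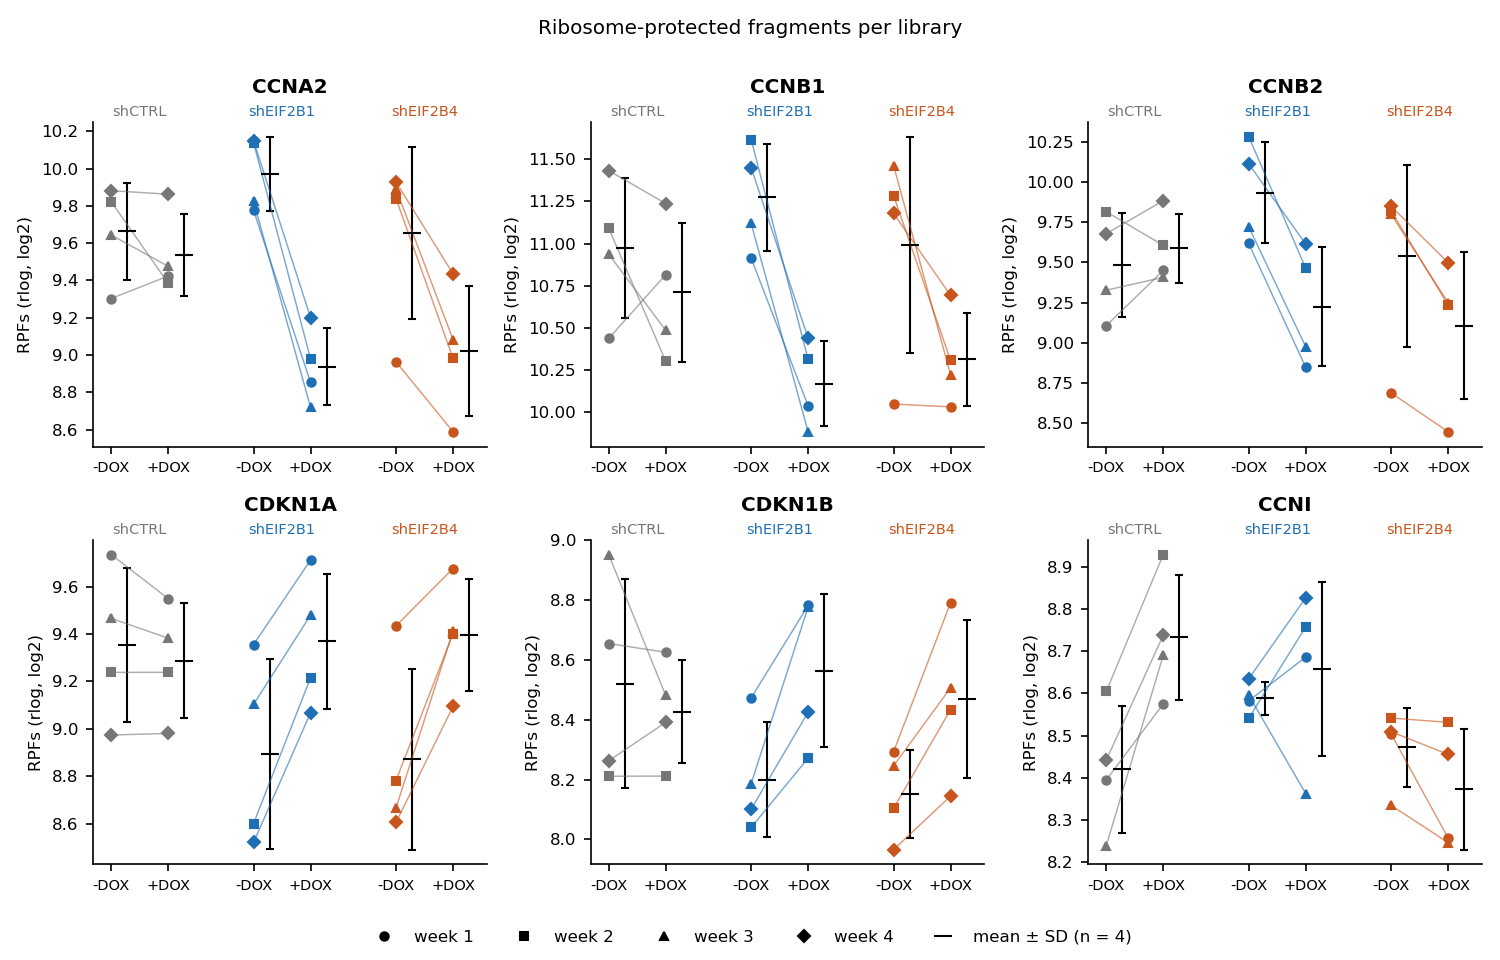
RPF values (rlog, log2 scale) of 6 genes in each of the 24 RPF libraries, by line and by -DOX or +DOX. Each symbol is a week, lines join the libraries of a week, and bars are the mean ± SD (n = 4). In shEIF2B1 the 4 +DOX libraries lie below the 4 -DOX libraries for CCNA2, CCNB1 and CCNB2, CDKN1A and CDKN1B rise within each week of both knockdown lines, and the -DOX library of shEIF2B4 from week 1 lies low for the 3 cyclins.

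After shEIF2B4 the A-type and B-type cyclins had negative responses that did not pass the threshold. CCNA2 RPFs were 8.96, 9.84, 9.89 and 9.93 in the -DOX libraries of shEIF2B4 and 8.59, 8.98, 9.08 and 9.44 in the +DOX libraries. The week 1 uninduced library was the low one, and the groups overlapped through it. The response was -0.51 ± 0.18 (adjusted p = 0.170, limma), negative in 4 of 4 weeks. CCNB2 was alike, with 8.69, 9.82, 9.80 and 9.85 against 8.45, 9.23, 9.25 and 9.50 and a response of -0.54 ± 0.20 (adjusted p = 0.207). CCNB1 read 10.05, 11.28, 11.46 and 11.18 against 10.03, 10.31, 10.22 and 10.69, and its response was -0.42 ± 0.28 (adjusted p = 0.488). Without week 1, CCNA2 (-0.51, adjusted p = 0.0351) and CCNB2 (-0.52, adjusted p = 0.0388) were called lower, together with CCNI (-0.41, adjusted p = 0.0610), and 8.17% of all genes were called lower in that fit, against 0.870% over all weeks.

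CDKN1A was the gene called after shEIF2B4 in the fit over all weeks. Its RPFs rose from 9.43, 8.78, 8.67 and 8.60 to 9.68, 9.40, 9.41 and 9.09, a rise in each week. The response was 0.59 ± 0.14, a fold of 1.51, with an adjusted p of 0.0526 (limma). It was no longer called without week 2, 3 or 4, where the change was 0.58, 0.51 and 0.63 and the adjusted p 0.311, 0.314 and 0.353, or in the fit without the replicate block (adjusted p = 0.984). CDKN1B read 8.29, 8.10, 8.25 and 7.97 without and 8.79, 8.43, 8.51 and 8.14 with DOX, with a response of 0.41 ± 0.16 (adjusted p = 0.222). Of the 10 genes, 1 was thus called higher where 1.88% of all genes were, and 0 lower where 0.870% were. An unadjusted p under 0.05 was reached by 5 of the 10 in limma, and by 15.7% of all genes.

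The starting levels of the lines differed, which bears on these responses. Without DOX, the difference between the shEIF2B1 line and shCTRL in CDKN1A RPFs was -0.46 ± 0.08 on the log2 scale (SE, adjusted p = 0.000826, limma), and that in CDKN1B RPFs was -0.32 ± 0.10 (adjusted p = 0.0166). With DOX in both lines, CDKN1A differed by 0.08 ± 0.08 (adjusted p = 0.624, limma) and CDKN1B by 0.14 ± 0.10 (adjusted p = 0.458). The induced shEIF2B1 libraries of CDKN1A, 9.07 to 9.71, overlapped the shCTRL libraries of either state, 8.97 to 9.74. The shEIF2B4 line behaved alike, with a CDKN1A difference of -0.48 ± 0.10 without and 0.11 ± 0.10 with DOX. With each library centred on its median, these differences were -0.39 ± 0.11 and 0.23 ± 0.11, the second not called (adjusted p = 0.246, limma). For the cyclins the induced lines did differ. With DOX in both lines the shEIF2B1 line minus shCTRL was -0.60 ± 0.09 for CCNA2 (adjusted p = 0.000302, limma), -0.54 ± 0.15 for CCNB1 (adjusted p = 0.0291) and -0.36 ± 0.09 for CCNB2 (adjusted p = 0.0223). Without DOX it was 0.31 ± 0.09 for CCNA2 (adjusted p = 0.0157) and 0.45 ± 0.09 for CCNB2 (adjusted p = 0.00168), so that a higher start is part of the responses of CCNA2 and CCNB2. The CCNB1 difference without DOX, 0.30 ± 0.15, was not called (adjusted p = 0.112, limma).

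Among the 10 genes, 7 were called between the uninduced shEIF2B1 and shCTRL lines, where 45.9% of all genes were, and 4 between the induced lines (CCNA2, CCNB1, CCNB2 and CCND3), where 10.6% were. For shEIF2B4, 4 were called between the uninduced lines, where 26.6% of all genes were, and 5 between the induced lines, where 19.7% were. The shEIF2B4 libraries lay lower as a whole, with a median difference of -0.13 over all genes. After each library was centred on its median, 2 genes remained called in the uninduced comparison (CCND1 and CDKN1A) and 2 in the induced one (CCND3 and CCNA2), where 13.0% and 8.60% of all genes were called. The centring also changed the split of all genes, from 3.87% higher and 22.7% lower to 6.51% and 6.52% without DOX, and from 3.04% and 16.7% to 4.36% and 4.24% with DOX. These comparisons of lines were added after the data were seen.

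In total RNA CCNA2 and CCNB1 also fell after shEIF2B1. CCNA2 total RNA was 11.07, 11.07, 10.92 and 11.05 in the -DOX and 10.57, 9.96, 10.25 and 10.49 in the +DOX libraries of shEIF2B1, and every induced library was the lower. The shCTRL values were 11.01, 10.94, 10.89 and 11.15 without and 10.96, 10.66, 10.69 and 10.94 with DOX, lower in each week as well. The response was -0.53 ± 0.12 (adjusted p = 0.0289, limma). CCNB1 went from 10.66, 10.88, 10.79 and 10.89 to 10.18, 10.05, 9.81 and 10.12, again with no overlap, and its response was -0.51 ± 0.15 (adjusted p = 0.0897, limma). CCNB2 had a response of -0.29 ± 0.12 that was not called (adjusted p = 0.243). The 2 calls among 10 genes were both lower, where 1.13% of all genes were called lower, and no gene was called higher, where 2.34% were; 6 of the 10 had an unadjusted p under 0.05, as did 15.3% of all genes. Both calls were lost without week 1, 3 or 4, with adjusted p-values of 0.154, 0.115 and 0.155 for CCNA2 and 0.285, 0.192 and 0.372 for CCNB1, and in the fit without the replicate block (0.136 and 0.144).

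After shEIF2B4 the total RNA responses of CCNA2 (-0.18 ± 0.10), CCNB1 (-0.30 ± 0.16) and CCNB2 (-0.16 ± 0.10) were not called, with adjusted p-values of 0.357, 0.338 and 0.455 in limma. In the shEIF2B4 line alone, each of these 3 mRNAs was lower in all 4 induced than in all 4 uninduced libraries, with CCNB2 at 9.94 in the nearest libraries of either state, and the shCTRL means were lower with DOX too. The inhibitor mRNAs were higher in the induced libraries. CDKN1A total RNA was 8.50, 8.39, 8.59 and 8.50 without and 8.61, 8.93, 8.65 and 8.60 with DOX in shEIF2B1, with no overlap, and the corrected response was 0.25 ± 0.12 (adjusted p = 0.319, limma). After shEIF2B4 it was 0.26 ± 0.10 (adjusted p = 0.196). CDKN1B total RNA was also higher in every induced library of both knockdown lines, but the shCTRL change was 0.24 ± 0.07 (adjusted p = 0.119, limma), and the corrected responses were 0.20 ± 0.13 and 0.22 ± 0.12, neither called.

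CCNI mRNA rose after shEIF2B4 while its RPFs did not. Cyclin I is an atypical cyclin related to cyclin G, found at high mRNA levels in non-dividing tissues, and its mRNA carries the 5 upstream ATGs noted above. A link between these ATGs and the changes of CCNI was not tested. CCNI total RNA in shEIF2B4 was 12.07, 11.85, 11.57 and 12.04 in the -DOX and 12.51, 12.58, 12.55 and 12.49 in the +DOX libraries. In shEIF2B1 it was 12.04, 11.87, 12.03 and 12.01 without and 12.57, 12.21, 12.66 and 12.73 with DOX. In both knockdown lines every induced library was the higher, whereas the shCTRL libraries overlapped (11.98 to 12.15 without, 12.07 to 12.35 with DOX). The response was 0.50 ± 0.13 after shEIF2B4 (adjusted p = 0.0434, limma) and 0.40 ± 0.14 after shEIF2B1 (adjusted p = 0.151). In total RNA after shEIF2B4 it was the single gene called of the 10, higher where 3.78% of all genes were called higher, and none was called lower, where 1.62% were. That call was lost without week 2, 3 or 4 (0.55, 0.41 and 0.55, adjusted p = 0.118, 0.136 and 0.160), and CCNI was called after shEIF2B1 without week 2 (0.55, adjusted p = 0.00905).

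CCNI RPFs did not follow the mRNA. They were 8.50, 8.54, 8.33 and 8.51 in the -DOX and 8.26, 8.53, 8.25 and 8.46 in the +DOX libraries of shEIF2B4. The shEIF2B1 libraries ran from 8.54 to 8.63 without and from 8.36 to 8.83 with DOX. In shCTRL they rose in each week, from 8.39, 8.60, 8.24 and 8.44 to 8.57, 8.93, 8.69 and 8.74. The RPF response, which subtracts that rise, was -0.41 ± 0.13 after shEIF2B4 (adjusted p = 0.127, limma) and -0.24 ± 0.13 after shEIF2B1 (adjusted p = 0.200). Without the shCTRL correction the change was -0.10 in shEIF2B4 and 0.07 in shEIF2B1, and the ranges overlapped in each line.

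Log2 TE, the RPF value minus the total RNA value of the same lysate, joined both movements. For CCNI it was -3.57, -3.31, -3.23 and -3.53 in the -DOX and -4.25, -4.05, -4.30 and -4.03 in the +DOX libraries of shEIF2B4. Every induced lysate was lower than every uninduced one. In shEIF2B1 it was -3.46, -3.33, -3.43 and -3.38 without and -3.89, -3.45, -4.29 and -3.91 with DOX, where week 2 moved least. The shCTRL line stayed between -3.77 and -3.38 in both states. The responses were -0.91 ± 0.17 after shEIF2B4 (adjusted p = 0.0435, limma) and -0.65 ± 0.18 after shEIF2B1 (adjusted p = 0.0599), negative in 4 of 4 weeks in each. Of all genes, 0.1% had a response to shEIF2B4 as low or lower. The level of log2 TE depends on the separate scaling of the 2 tables, so only its changes are compared.

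**Figure D2:**
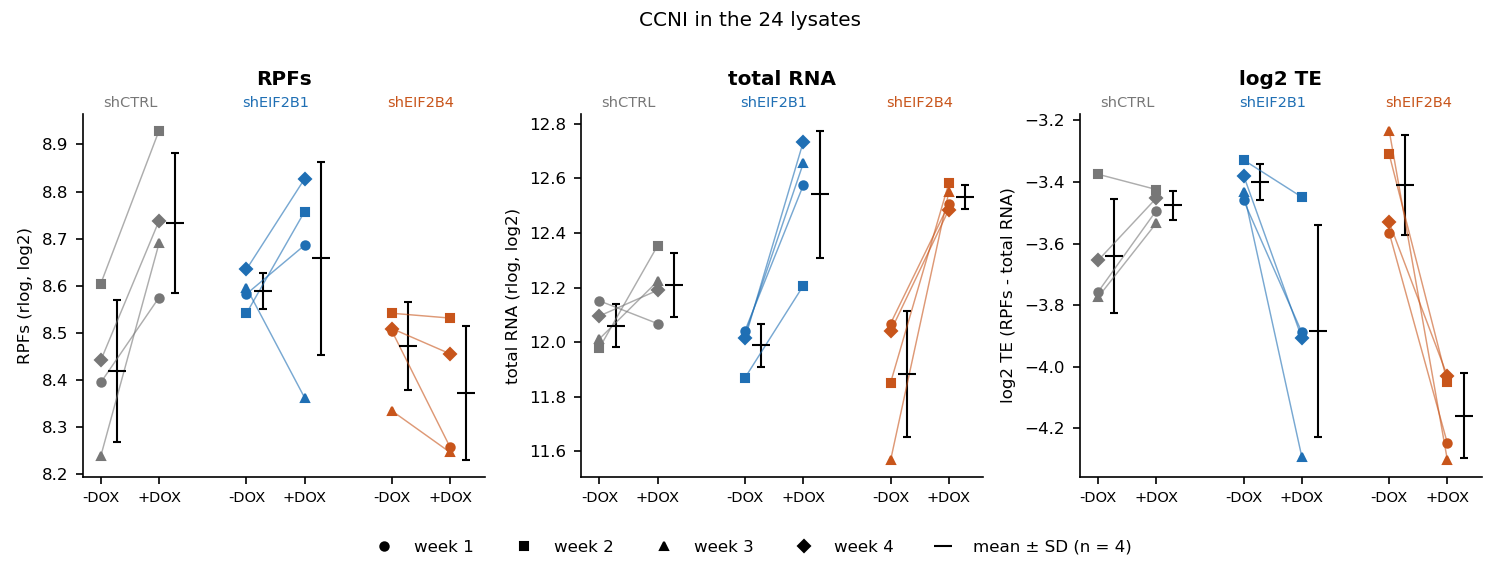
CCNI in the 24 lysates, as RPFs, total RNA (both rlog, log2 scale) and log2 TE, the difference between them. Symbols are weeks, joined within a line, and bars are the mean ± SD (n = 4). Total RNA is higher in every +DOX library of both knockdown lines, RPFs are not, and log2 TE in shEIF2B4 drops from between -3.57 and -3.23 to between -4.30 and -4.03.

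CCNB2 was the other gene called in log2 TE. In shEIF2B1 its log2 TE went from -0.37, 0.17, -0.47 and 0.04 to -1.07, -0.19, -0.63 and -0.21, lower in each week, and the shCTRL values were -0.93, -0.29, -0.92 and -0.42 without and -0.56, -0.37, -0.83 and -0.17 with DOX. The response was -0.52 ± 0.16 (adjusted p = 0.0698, limma), of which week 1 gave -1.08 and the other weeks -0.25 to -0.49. In log2 TE after shEIF2B1, 2 of the 10 genes were called lower, where 4.13% of all genes were called lower, and none higher, where 2.97% were. After shEIF2B4, CCNI was called lower, where 0.0277% of all genes were called lower, which is 3 genes of 10836, and no member was called higher, where 0.0646% were. None of these 3 calls stood in the fit without the replicate block (adjusted p = 0.562 for CCNI after shEIF2B4 and 0.906 for the other 2), where 0% of all genes were called. Leaving out week 1, 3 or 4 ended both calls after shEIF2B1, with adjusted p-values between 0.146 and 0.387, and leaving out week 2, 3 or 4 ended that of CCNI after shEIF2B4, with changes of -0.99, -0.78 and -0.98 and adjusted p-values of 0.308, 0.379 and 0.410. The inhibitors had positive log2 TE responses that were not called, 0.29 and 0.33 for CDKN1A and 0.25 and 0.19 for CDKN1B after shEIF2B1 and shEIF2B4.

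The D-type and E-type cyclins were not called in any measure after either knockdown. CCND1, the D-type cyclin with the most RPFs here, read 11.80, 11.26, 11.56 and 11.17 without and 11.62, 11.13, 11.40 and 10.79 with DOX in shEIF2B1. Each week was lower with DOX, shCTRL was lower in 3 of 4 weeks, and the 95% interval of the RPF response ran from -0.31 to 0.31. After shEIF2B4 the response was 0.26 ± 0.15, with an interval from -0.05 to 0.57 (adjusted p = 0.400, limma). In total RNA the CCND1 intervals were -0.28 to 0.16 and -0.20 to 0.24. CCND3, which also pairs with CDK4 and CDK6, had RPF responses of -0.25 ± 0.13 and -0.16 ± 0.15, and the shCTRL change itself was -0.27 ± 0.10 (adjusted p = 0.126, limma). Its total RNA responses were -0.28 ± 0.12 (adjusted p = 0.256) and -0.32 ± 0.11 (adjusted p = 0.129). Without week 2 the CCND3 total RNA response to shEIF2B1 was called, at -0.41 (adjusted p = 0.0425).

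CCNE1 and CCNE2, the partners of CDK2, had few RPFs. CCNE1 RPF values ran from 3.56 to 4.58 over the 24 libraries, and its RPF responses were 0.05 ± 0.17 after shEIF2B1 and -0.32 ± 0.17 after shEIF2B4 (adjusted p = 0.383, limma). CCNE2 read 5.50, 6.15, 5.49 and 6.20 without and 4.95, 5.57, 5.10 and 5.69 with DOX in shEIF2B1. Each week was lower with DOX and the groups overlapped, with a response of -0.37 ± 0.17 (adjusted p = 0.126). After shEIF2B4 it was -0.15 ± 0.19 (adjusted p = 0.717). Regularized log2 values draw low genes towards their mean, so changes of CCNE1 and CCNE2 in RPFs may be understated.

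**Figure D3:**
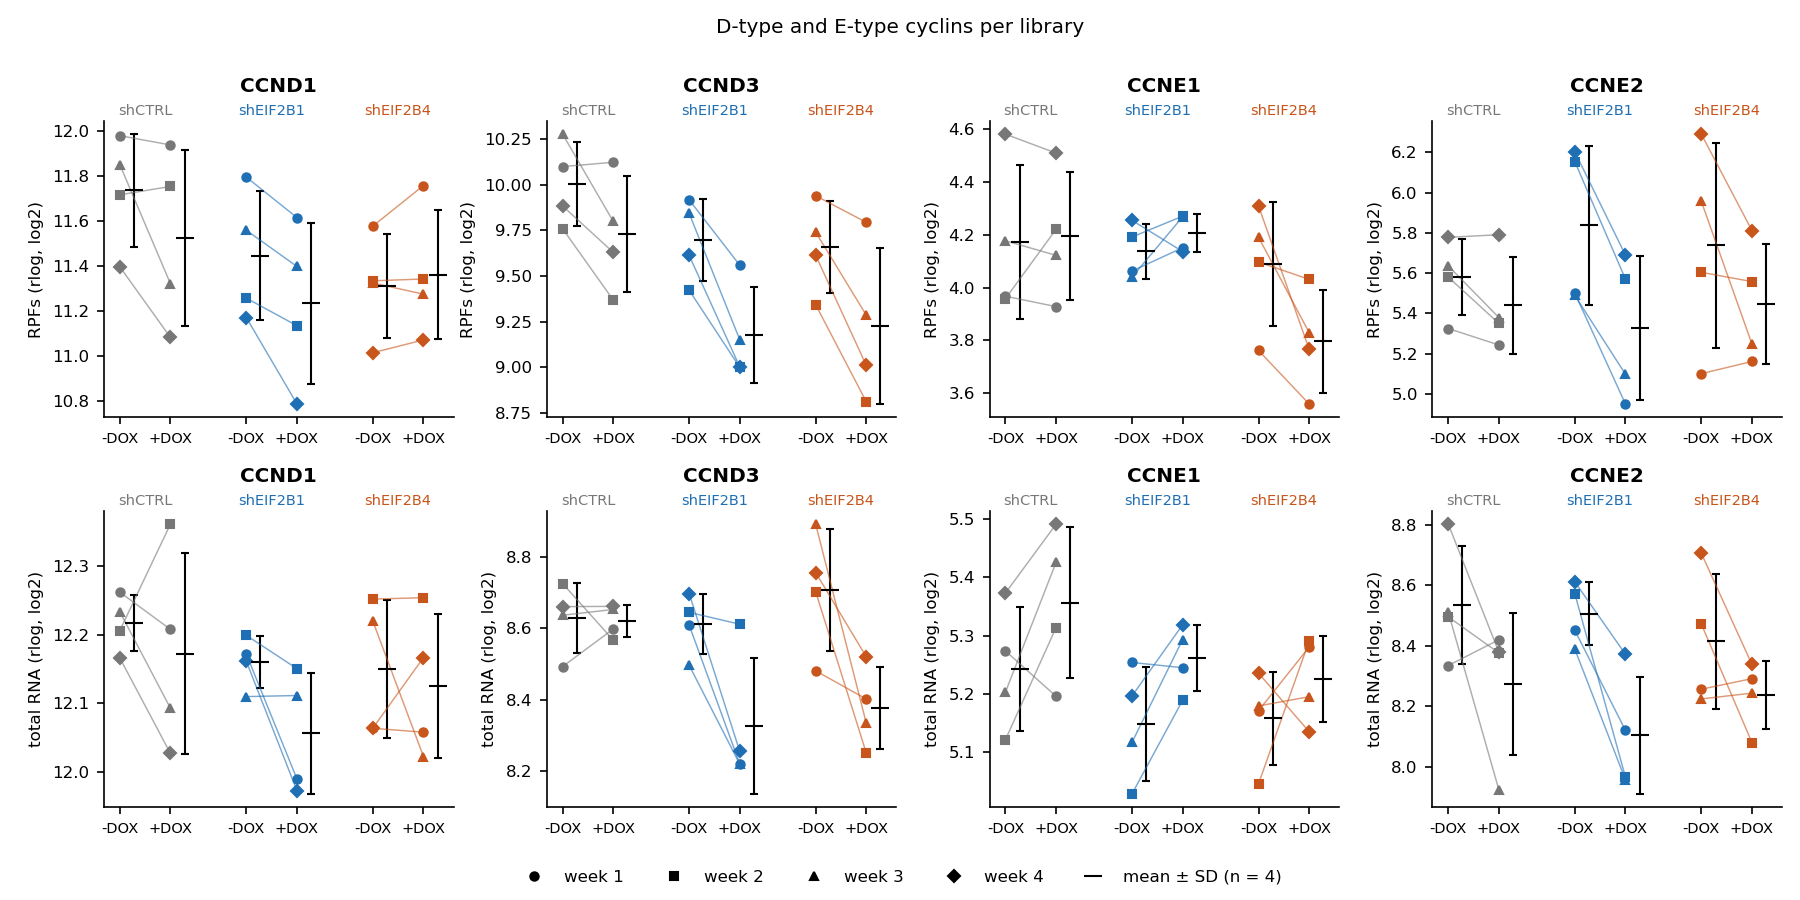
RPF values (upper row) and total RNA values (lower row) of CCND1, CCND3, CCNE1 and CCNE2 in each library, on the rlog log2 scale, by line and by -DOX or +DOX. Symbols are weeks, joined within a line, and bars are the mean ± SD (n = 4). CCND3 and CCNE2 RPFs are lower with DOX in each week of shEIF2B1, CCND3 is lower in 3 of 4 weeks of shCTRL too, and no corrected response of these 4 genes passed the threshold.

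The knockdowns were compared directly by the difference of their responses over 24 libraries. No gene of the 10 was called in RPFs, where 0.00897% of all genes were, in total RNA, where 0.1% were, or in log2 TE, where 0% were. At an unadjusted p under 0.05 in limma, 2 of the 10 differed in RPFs, 1 in total RNA and 1 in log2 TE, against 713, 1528 and 665 of all genes. The 2 in RPFs were CCNA2, at -0.40 (95% interval -0.76 to -0.04, adjusted p = 0.746), and CCNE1, at 0.36 (0.02 to 0.71, adjusted p = 0.746). CCNA2 also had the smallest p in total RNA, with a difference of -0.35 (-0.59 to -0.11, adjusted p = 0.278) that had the same sign in 4 of 4 weeks. For CDKN1A the RPF difference was -0.05, with an interval from -0.33 to 0.23. For CCNI in log2 TE it was 0.26, from -0.11 to 0.64. The intervals of CCNB1 (-0.97 to 0.11) and CCNB2 (-0.67 to 0.12) in RPFs included 0.

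**Figure D4:**
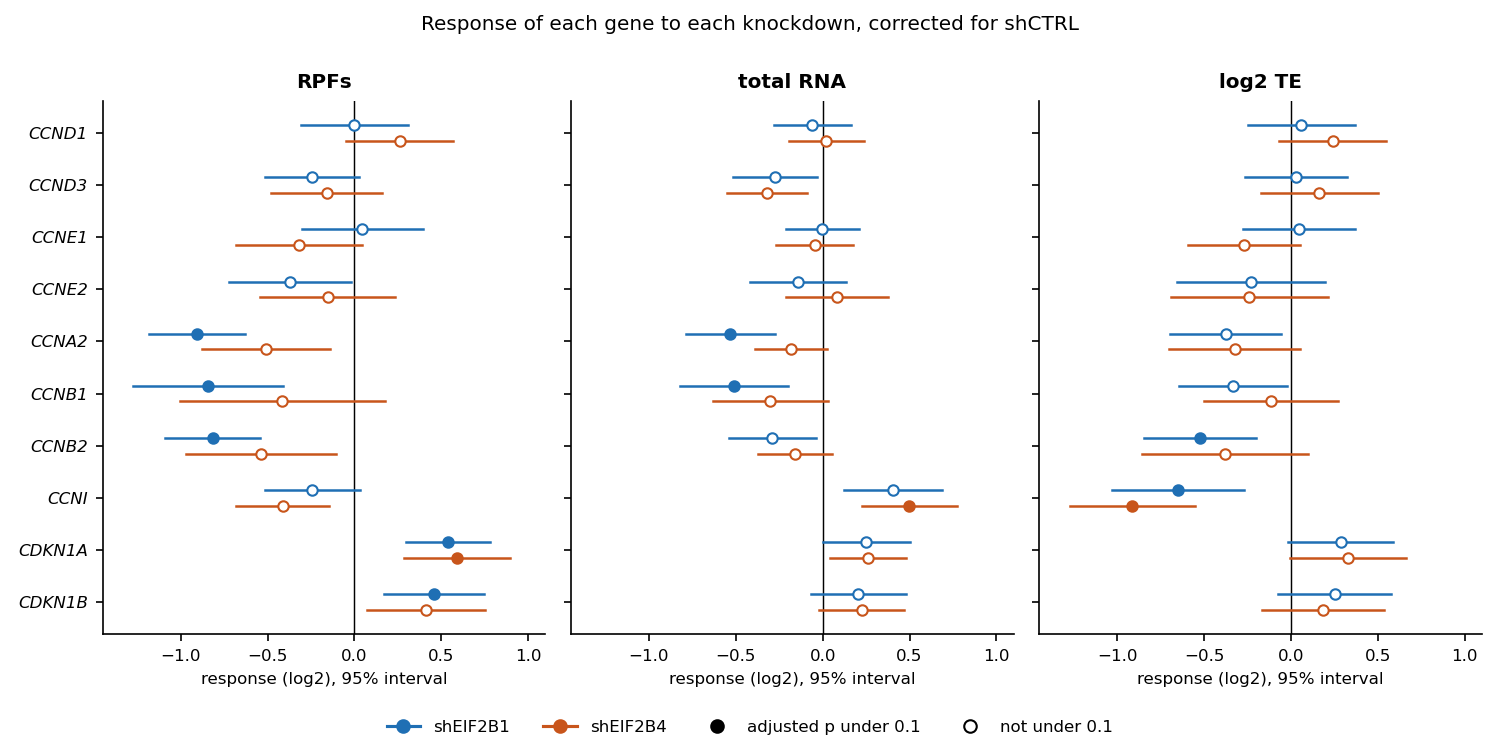
Responses of the 10 genes to shEIF2B1 and shEIF2B4 in RPFs, total RNA and log2 TE, on the log2 scale, with 95% intervals from limma. Filled symbols passed an adjusted p of 0.1. Values for CCNA2, CCNB1 and CCNB2 lie below 0 in each panel, those of CDKN1A and CDKN1B lie above 0, and CCNI is above 0 in total RNA and below 0 in RPFs and log2 TE. The 2 responses share the shCTRL libraries.

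Induction of shCTRL alone moved CCNI RPFs, by 0.31 ± 0.09 (adjusted p = 0.0725, limma), and this was the single call among the 10 where 9.85% of all genes were called. The call was lost in the fit without the replicate block and without week 2, 3 or 4, where at most 0.0359% of all genes were called. Without week 1, 4 of the 10 were called, where 31.6% of all genes were. In total RNA none of the 10 was called on induction of shCTRL, where 4.44% of all genes were, with 4 at an unadjusted p under 0.05, where 20.1% of all genes were, and 5 were called without week 1, where 20.5% of all genes were. In log2 TE none was called, where 0.388% were, with 2 at an unadjusted p under 0.05, where 15.0% of all genes were.

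The other genes of the cyclin-CDK pathway, 57 in 6 lists, gave 55 that were measured in RPFs. After shEIF2B1, 14 of them were called lower, where 15.3% of all genes were, and 4 higher, where 12% were, and the median response was -0.09 against -0.01 over all genes. In the fit without the replicate block, 48 of all 11145 genes were called higher and 2 lower. At most 2 of the 14 falls could therefore stand in that fit. After shEIF2B4 none of the 55 was called in limma, where 1.88% of all genes were called higher and 0.870% lower. Among the partner kinases 2 of 5 fell, CDK1 by 0.62 ± 0.13 (adjusted p = 0.00485) and CDK7, the CDK-activating kinase, by 0.55 ± 0.16 (adjusted p = 0.0259). CKS2, a small CDK1-binding subunit, had the lowest response of the lists, -1.11 ± 0.19 (adjusted p = 0.00116), and 3 of 8 genes of CDK phosphorylation and CKS fell. Among other CDK inhibitors, 2 of 6 rose, CDKN2B (0.65 ± 0.18, adjusted p = 0.0189) and CDKN2A (0.58 ± 0.15, adjusted p = 0.0113), both inhibitors of CDK4 and CDK6, and 1 fell. Of 15 other cyclins measured, 2 rose, with CCND2 at 0.62 ± 0.14 (adjusted p = 0.00641), and 4 fell. Of the RB and E2F list 2 of 13 fell, and of the genes for destruction of cyclins and inhibitors 2 of 8 fell, with none higher in either.

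In total RNA 1 of 56 of these genes was called after shEIF2B1, lower, where 1.13% of all genes were called lower and 2.34% higher. This was CDC25C, a phosphatase that activates CDK1 (-0.42 ± 0.12, adjusted p = 0.0759, limma). After shEIF2B4, CDKN2B (0.89 ± 0.12, adjusted p = 0.000124) and CCND2 (0.43 ± 0.12, adjusted p = 0.0532) rose and CCNF, a ubiquitin ligase subunit, fell (-0.46 ± 0.10, adjusted p = 0.0199), where 3.78% of all genes were called higher and 1.62% lower. In log2 TE after shEIF2B1, CCNO and CDKN2A rose and CDK7 and CKS2 fell, by 0.47, 0.48, -0.59 and -0.66, where 2.97% of all genes were called higher and 4.13% lower. Their adjusted p-values were 0.0859, 0.0734, 0.0899 and 0.0678 (limma). These calls did not stand without the replicate block or without week 1, where 0% of all genes were called. None of the companion genes was called in log2 TE after shEIF2B4, where 0.0646% of all genes were called higher and 0.0277% lower. These total RNA and log2 TE genes were named after their values were seen.

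Within the 24 RPF libraries, after removal of each week's mean, pairs of the 10 genes were correlated. Pearson's r was 0.95 between CCNA2 and CCNB1, 0.91 between CCNA2 and CCNB2 and 0.86 between CCNB1 and CCNB2. With the same 3 genes in that order (CCNA2, CCNB1, CCNB2), r was 0.74, 0.78 and 0.70 for CCNE2, 0.75, 0.71 and 0.52 for CCND3 and 0.28 to 0.33 for CCNE1. CDKN1A ran against them, with r of -0.71, -0.74 and -0.71, and against CCNE2 (r = -0.79), and with CDKN1B (r = 0.74). CCND1 and CCNI had r between -0.17 and 0.38 with these 3 cyclins. The genes of the table closest to CCNA2 were ANLN (r = 0.974) and AURKA (r = 0.973). CCNB1 was closest to AHSA1 (r = 0.975) and HNRNPA1L2 (0.962), CCNB2 to GLOD4 and HMGB1 (both 0.953) and CDKN1A to ABCC10 (0.946) and CALHM3 (0.926). TUBB2A was among the closest to CCND3 (0.940). CCNI (ADGRG2, 0.855, and GLT8D1, 0.844), CCNE2 (IDI1, 0.899, and METAP2, 0.890), CCND1 (GTF3C5, 0.882, and CHMP1A, 0.837), CDKN1B (WDR24, 0.847) and CCNE1 (ENC1, 0.775, and SOCS6, 0.774) had looser neighbours. These coefficients describe libraries that share lines, weeks and DOX treatment.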

How the data were processed

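RPF libraries and matched libraries of total cytoplasmic RNA from SW480 lysates were analysed, with groups and replicate numbers taken from the deposited labels. The authors deduplicated total RNA reads, aligned them with Bowtie2 to GENCODE v38 protein-coding transcripts, quantified transcripts by RSEM and retained, for each gene, its most abundant transcript. RPF reads of 28 to 33 nt were counted on coding sequences. Reads of replicate 3 came from 2 joined runs. The authors then made the deposited values, on a regularized log2 scale, in DESeq2. No counts or library totals are given, so depth and counting error are unknown. The submitters' processing notes also name R 4.3.1, cutadapt 1.18 and SAMtools 1.9.

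Responses were fitted over all genes with limma 3.58.1 in R 4.3.3 (lmFit, eBayes with trend) with terms for week, line, DOX and line by DOX, over 16 libraries per response, 24 for the difference and 8 for shCTRL. Replicates were separate weeks in the study's methods, and the week was a block as in the authors' design. After group means were removed, libraries of the same week had a mean correlation of 0.559 in RPFs, 0.183 in total RNA and 0.538 in log2 TE. P-values are two-sided. Alternatives were no block, no trend, a filter on the lowest 25% of genes, centring, all libraries in 1 fit, no shCTRL correction, a threshold of 0.05 and each week left out. Leader and coding features used GENCODE v29 transcripts matched without version. All 10 genes are named, EIF2B1 and EIF2B4 as targets, and of the companion lists the 3 largest rises and falls called in RPFs, with the 2 closest genes per member, except that 1 for CCND3 and 1 for CDKN1B are not reported here. The members and lists were chosen with earlier results of these data known. Figures used matplotlib 3.10.9.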

Additional observations from a re-analysis of the deposited data

Results flagged for a closer look

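In groups of 4 libraries a value was marked where its gap to the nearest other value was large against the range of the group, by Dixon's 95% limit. This was so for 13 of 180 groups of a gene, line, state and measure, and chance marks about 1 in 20.

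Of these, 5 were in the uninduced shEIF2B4 lysate of week 1. CCNA2 RPFs were 8.96 there, against 9.84 to 9.93 in the other weeks, and CCNB2 RPFs were 8.69, against 9.80 to 9.85. In log2 TE of the same lysate CCNE1 stood at -1.41 (-0.99 to -0.93 elsewhere), CCNB1 at -0.34 (0.39 to 0.50) and CCNB2 at -1.25 (-0.25 to -0.12).

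The other 8 were spread over lines. In total RNA they were CCND3 in week 2 of shEIF2B1 +DOX (8.61, against 8.22 to 8.26), CCNE2 in week 3 of shCTRL +DOX (7.92, against 8.38 to 8.42), CCNA2 in week 3 of shEIF2B1 -DOX (10.92, against 11.05 to 11.07) and of shEIF2B4 -DOX (10.70, against 10.95 to 10.99), CCNB2 in week 1 of shEIF2B4 +DOX (9.94, against 9.71 to 9.74), CCNI in week 2 of shEIF2B1 -DOX (11.87, against 12.01 to 12.04) and CDKN1A in week 2 of shEIF2B1 +DOX (8.93, against 8.60 to 8.65). In log2 TE it was CDKN1B in week 1 of shCTRL +DOX (0.12, against -0.46 to -0.36).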

How the results depend on the processing

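Counts below are of the 10 genes called, with the share of all genes called in either direction in brackets where given. Without the replicate block, that is, without pairing by week, 0 were called after shEIF2B1 in RPFs (0.449%), total RNA (1.60%) and log2 TE (0%). In that fit 0 were also called after shEIF2B4 in RPFs (0.323%) and log2 TE (0%), and 0 on induction of shCTRL in RPFs (0%). The estimates did not change, 11 of the 12 called responses to a knockdown were lost, the CCNI call on induction of shCTRL was lost too, and CCNI in total RNA after shEIF2B4 stayed called (adjusted p = 0.0663, limma). The block changed no other call. Leaving out the mean-variance trend changed none of 60 responses. Without the shCTRL correction, 8 (49.4%), 7 (34.4%) and 4 (17.1%) were called after shEIF2B1 in RPFs, total RNA and log2 TE, and 6 (23.8%) and 7 (34.4%) after shEIF2B4 in RPFs and total RNA. In 1 fit over 24 libraries the count was 2 (4.40%) after shEIF2B4 in RPFs and 0 (0.406%) after shEIF2B1 in log2 TE. At an adjusted p under 0.05 it was 0 (1.24%) after shEIF2B4 in RPFs and 0 (2.46%) on induction of shCTRL in RPFs. After shEIF2B1 it was then 1 (1.75%) in total RNA and 0 (2.22%) in log2 TE. The filter on the lowest 25% of genes used the mean of each measure, so in log2 TE it removed the genes with the lowest log2 TE. CCNI was among these and was not tested there. The log2 TE counts were then 1 (6.13%) after shEIF2B1 and 0 (0.295%) after shEIF2B4. Comparing induced lines with induced shCTRL, an alternative chosen after seeing the data, gave 5 (19.7%) for shEIF2B4 in RPFs.

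With each week left out, counts ran from 0 to 4 after shEIF2B4 in RPFs, 0 to 4 on induction of shCTRL in RPFs, 0 to 4 after shEIF2B1 and 0 to 1 after shEIF2B4 in total RNA, 0 to 5 on induction of shCTRL in total RNA, and 0 to 3 after shEIF2B1 and 0 to 1 after shEIF2B4 in log2 TE. In the same order, calls over all genes ran from 43 to 1615, 3 to 3526, 111 to 645, 217 to 496, 3 to 2452, 0 to 1366 and 0 to 1417, so that in log2 TE without week 2, 3 or 4 no gene at all was called after shEIF2B4.

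Signs turned only for responses that were not called in the fit with the block. With libraries centred on their medians, CCND1 after shEIF2B1 in RPFs was 0.052, CCNE1 after shEIF2B1 in total RNA 0.0016 and CCND1 after shEIF2B4 in total RNA -0.0017. Without the shCTRL correction, CCNI after shEIF2B1 in RPFs was 0.070. In total RNA, CCNE1 was then 0.11 after shEIF2B1 and 0.068 after shEIF2B4, and CCND1 and CCNE2 were -0.025 and -0.18 after shEIF2B4. In log2 TE, CCND1, CCND3, CCNE1 and CDKN1B were then -0.11, -0.23, -0.043 and -0.076 after shEIF2B1, and CCND3 and CDKN1B -0.10 and -0.14 after shEIF2B4. With each week left out, the RPF response to shEIF2B1 ran from -0.12 to 0.053 for CCND1 and from -0.034 to 0.12 for CCNE1. In total RNA, CCNE1 ran from -0.025 to 0.014 after shEIF2B1, and CCND1 from -0.054 to 0.078, CCNE1 from -0.12 to 0.011 and CCNE2 from -0.089 to 0.20 after shEIF2B4. In log2 TE, CCNE1 ran from -0.048 to 0.11 after shEIF2B1 and CCNE2 from -0.47 to 0.034 after shEIF2B4. The causes were not tested. Depth is unknown, so no counting error can be given.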
